A study of Mus musculus with 18 samples.

Results

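The spliceosome and SR protein genes described here are those whose symbols begin with Snrp, Sf3a or Sf3b, Lsm (numbers 1 to 8), Prpf or Srsf followed by the usual letter or number, together with Bud31. The pattern matched 57 of the 47069 listed genes, and leaving out 2 processed copies whose symbols carry "-ps" gave 55 members on 16 chromosomes. Of these, 54 are annotated as protein coding and 1, Snrpert, as a processed pseudogene. A filter on low counts, applied to all genes alike, kept 52 members as measured among 12209 measured genes. The members left out were Sf3a2, with 52 counts spread over 12 oocytes, and Srsf12 and Snrpert, with no count in any oocyte.

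The study profiled single oocytes from C57BL/6 wild-type mice of 2 ages, 6 weeks and 12 months. At each age there were 3 oocytes at the germinal vesicle stage (GV), 3 brought to metaphase II by maturation in vitro (IVM-MII), and 3 matured in the presence of MSC (MSC-IVM-MII). What MSC stands for is not said in the labels. All 18 libraries were made by SMART-seq2, which copies polyadenylated RNA. In all 6 groups the library was made from the lysate of 1 oocyte after its nucleus had been pelleted. The labels name no animal, litter or culture, so the 3 oocytes of a group counted as 1 sample, and no test across groups was made. Oocyte numbers 1 to 3 only name the cells of a group. The sample titles carry 5 prefixes whose meaning is not given, and none is shared between the ages, so age and prefix cannot be told apart.

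The spliceosome removes introns from pre-mRNA. Its small nuclear ribonucleoproteins (snRNPs) carry a ring of Sm proteins, or of related LSm proteins in the U6 snRNP, around a small nuclear RNA, and SF3a and SF3b are parts of the U2 snRNP that help it to hold the branch site. PRPF proteins act in the tri-snRNP and in later steps, and SR proteins bind exons and recruit the machinery. A grown GV oocyte is transcriptionally quiet and carries a store of maternal mRNA, much of which is translated or degraded during maturation, with changes in the length of the poly(A) tail. In these libraries a lower or higher amount of an mRNA cannot be told apart from a shorter or longer poly(A) tail. Fewer molecules and a larger library total cannot be told apart either, since values are in CPM, counts scaled to a common library total. RNA pelleted with the nucleus is missing from a library, so a lower amount at GV and RNA held in the nucleus cannot be told apart.

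Library totals ranged from 1914072 to 9193559 counts. Between 45 and 53 members had a count in each oocyte, also after thinning all libraries to 1914072 counts, and together the members took 0.419% to 0.645% of a library. The 15 oocyte markers summed to 19861 to 95024 CPM per library, and only Figla, in MSC-IVM-MII oocytes at 12 months, was at 0 throughout a group. Cumulus and granulosa markers summed to 1712 CPM in oocyte 3 of the GV group at 12 months, while the remaining GV oocytes had 51.8 to 224 CPM and metaphase II oocytes 0 to 72.3 CPM. The blood and immune markers summed to at most 20.01 CPM. The mesenchymal stromal markers summed to at most 29.6 CPM, with Thy1, Eng and Nt5e at 0 in all libraries. Mitochondrial transcripts took a group mean of 2.21% and 2.66% of counts in GV oocytes and 6.45% to 11.1% in metaphase II oocytes. Long transcripts were also relatively more abundant at metaphase II. The median log2 CPM of genes with long transcripts (at least 2941 bases, the top quartile) minus that of genes with short ones (at most 1293 bases, the bottom quartile) was -2.01 and -1.75 in the GV groups and -0.45 to 0.09 in the metaphase II groups. Whether this shift in transcript length takes part in the member differences was not tested.

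Between GV and metaphase II, the members moved apart in both directions, and the median member was near the median gene. Differences are given between group means of log2(CPM + 1), and a member is called lower or higher past 2-fold, a difference of 1. At 6 weeks, 18 of 52 members were lower after maturation (IVM-MII against GV) and 18 were higher, which is 34.6% each way, beside 36.9% of all measured genes lower and 19.5% higher. The median difference was -0.38 over the members and -0.38 over all genes, and the members' median lay between -0.22 and -0.028 on leaving out any 1 oocyte. At 12 months 22 members were lower and 13 higher, beside 37.6% and 17.2% of all genes, with medians of -0.43 and -0.46. The lower members were thus about as frequent as among all genes, and the higher ones more frequent, but the members were chosen with earlier results known and no test of the list was made.

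With MSC the counts were close to these. At 6 weeks 16 members were lower and 20 higher in MSC-IVM-MII than in GV oocytes, beside 33.7% and 22.8% of all genes, with medians of -0.12 and -0.22. At 12 months 21 were lower and 14 higher, beside 40.4% and 18.1%, with medians of -0.38 and -0.54. The comparisons with and without MSC at one age share the same GV oocytes. Across all 4 comparisons 13 members were past 2-fold lower each time: Bud31, Lsm3, Lsm4, Lsm5, Lsm6, Prpf31, Sf3b3, Sf3b4, Sf3b5, Snrpa, Snrpb, Snrpc and Snrpd2. Another 7 were past 2-fold higher each time, among them Prpf38b, Prpf6, Snrpb2, Snrpf, Snrpg and Srsf5. The share of all genes past 2-fold in all 4 comparisons was not computed, so these counts have no background beside them. In the comparisons without MSC, 16 of 52 members and 3384 of 12209 genes were lower at both ages, and 9 and 1343 were higher.

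**Figure D1:**
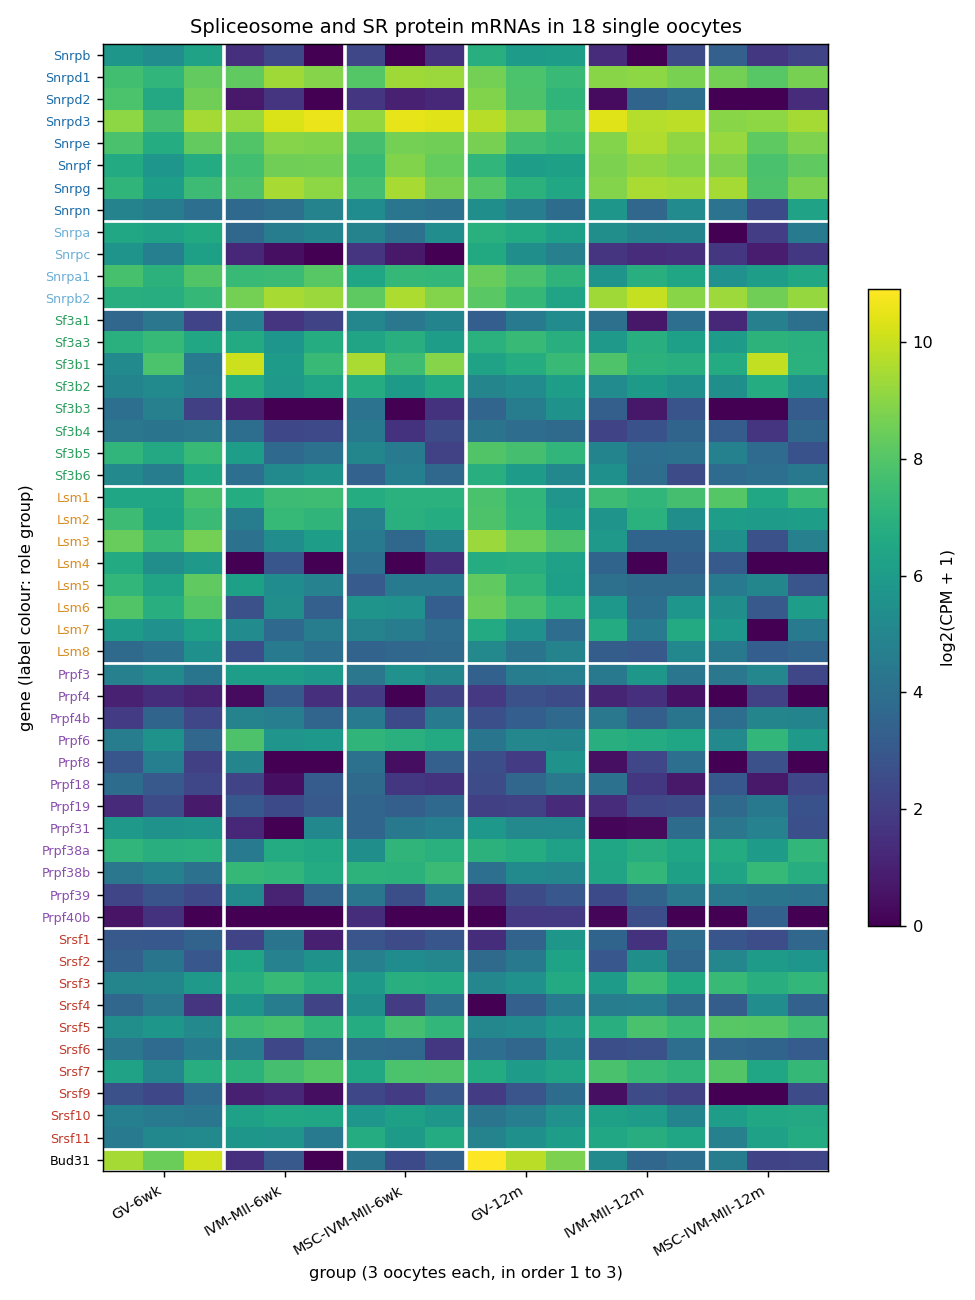
Each row is 1 of 51 measured members and each column 1 of the 18 oocytes, grouped by stage and age, with the colour giving log2(CPM + 1), from 0 in dark purple to the highest values in yellow. Rows such as Bud31, Snrpd2, Snrpb and Snrpc are high in the 6 GV oocytes and low in the 12 metaphase II oocytes, and rows such as Snrpb2, Snrpf and Srsf5 show the opposite.

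The members past 2-fold lower had shorter 3′ untranslated regions (3′ UTRs) than those past 2-fold higher. At 6 weeks the median 3′ UTR was 302.5 bases for the lower members, 686 for those in between and 1090.0 for the higher ones, in 1 GENCODE transcript per gene. At 12 months the medians were 355, 695 and 1112 bases. The same order was present among all genes at 6 weeks, with 557.5, 1127 and 1275 bases, and at 12 months, with 608, 1119 and 1153 bases, so the order is shared with the rest of the transcriptome.

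The last 100 bases of each 3′ UTR were searched on the sense strand for TTTTAT or TTTTAAT, the letters of the cytoplasmic polyadenylation element, where CPEB binds and can govern the poly(A) tail of maternal mRNAs. Such letters were found in 3 of 18 lower and 4 of 18 higher members at 6 weeks, and in 4 of 22 lower and 4 of 13 higher members at 12 months. Among all genes the share was 12.0% of the lower and 29.7% of the higher genes at 6 weeks, and 13.4% and 27.7% at 12 months. The 3 sites below are shown because they lie in members at both ends of the range, Lsm3 among the lowest after maturation, Prpf6 past 2-fold higher in all 4 comparisons, and Snrpd3 past 2-fold higher in 3. The coordinates are GRCm38, the annotation is GENCODE M21, each lies in the 3′ UTR, the letters read 5′ to 3′ on the gene's strand, and capitals mark the element.
Lsm3 (chr6:91522596-91522625, plus strand): aaattaaatttgatgtttccttTTTTATta
Snrpd3 (chr10:75537336-75537365, plus strand): ctgtttggtttaTTTTATtgtattaataaa
Prpf6 (chr2:181655631-181655660, plus strand): cttttactcattaaaggtTTTTATagagtt
The element was therefore present in a member far lower at metaphase II as well as in members that were higher, and a match is a description of letters, not a working site.

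A promoter motif that the rule did not use was looked for. CGGAAG, the core that ETS family factors are known to bind, was searched on either strand of the 100 bases upstream of the RefSeq start. It was present in 19 of the 46 members whose promoter was in the set used (41.3%), beside 8.44% of all 27025 promoters in that set. The 27025 were not limited to measured genes, so they are an unlike background, and no test of the difference was made. The motif was in 7 of 17 members past 2-fold lower at 12 months and in 6 of 12 past 2-fold higher, so it was found on both sides of the maturation difference. The 100 bases upstream of the start are shown for 4 members, 2 of them lower after maturation (Snrpa and Prpf31) and 2 higher (Srsf5 and Prpf38b). The sequences are from RefSeq on GRCm38.p6, read 5′ to 3′ on the gene's strand, and capitals mark CGGAAG or its reverse complement CTTCCG.
Snrpa (chr7:27196272-27196371, minus strand): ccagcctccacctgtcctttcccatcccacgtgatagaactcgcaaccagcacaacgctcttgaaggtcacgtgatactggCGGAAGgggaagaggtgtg
Prpf31 (chr7:3629885-3629984, plus strand): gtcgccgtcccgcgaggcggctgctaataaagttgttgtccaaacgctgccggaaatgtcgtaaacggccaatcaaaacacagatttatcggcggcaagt
Srsf5 (chr12:80945399-80945498, plus strand): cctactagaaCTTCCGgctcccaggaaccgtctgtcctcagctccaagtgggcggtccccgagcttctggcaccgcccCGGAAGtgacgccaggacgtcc
Prpf38b (chr3:108911730-108911829, minus strand): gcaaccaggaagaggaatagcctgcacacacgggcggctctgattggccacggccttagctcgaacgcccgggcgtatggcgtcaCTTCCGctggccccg
Srsf5 holds the letters in both orientations, Snrpa and Prpf38b once each, and the Prpf31 window not at all.

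The mRNAs of the Sm ring split in direction at maturation. The 7 proteins of the ring, SmB, D1, D2, D3, E, F and G, are the products of Snrpb, Snrpd1, Snrpd2, Snrpd3, Snrpe, Snrpf and Snrpg. In the ring, 1 copy of each encloses the Sm site of the small nuclear RNA. The mRNAs of Snrpb and Snrpd2 were nearly absent at metaphase II, while those of the other 5 were as high as in GV oocytes or higher. With Snrpn, which codes for the SmB paralog SmN, the Sm core genes had 2 members lower and 4 higher of 8 at 6 weeks, with a median difference of 1.06, and the same counts at 12 months with a median of 1.08. With MSC the counts were 2 lower and 4 higher at 6 weeks and 2 lower and 2 higher at 12 months. Beside these stand 36.9% of all genes lower and 19.5% higher at 6 weeks without MSC, and 37.6% and 17.2% at 12 months. The shares with MSC were 33.7% and 22.8% at 6 weeks, and 40.4% and 18.1% at 12 months. The number higher moved with the setting at both ages. Averaged within title prefixes at 6 weeks, 2 were lower and 2 higher without MSC (median 0.75) and 2 lower and 2 higher with it (median 0.60). Under DESeq2 size factors at 6 weeks 3 were higher without MSC and 2 with it. At 12 months without MSC, 3 were higher under DESeq2 size factors, and 3 without oocyte 3 of the GV group (median 0.65). On totals without mitochondrial genes 5 were higher at that age, and 5 within title prefixes. At 12 months the prefix setting leaves out GV oocyte 1, whose prefix no metaphase II oocyte shares. It also gives GV oocyte 3 more weight than the main setting does.

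Snrpd2 (ENSMUSG00000040824, chr7:19149722-19153542) stood at 225, 95.3 and 368 CPM in the 3 GV oocytes at 6 weeks, and at 0.697, 2.08 and 0 CPM in the IVM-MII oocytes. At 12 months the GV oocytes had 456, 229.8 and 141 CPM and the IVM-MII oocytes 0.233, 10.4 and 14.2 CPM. Every GV oocyte was above every IVM-MII oocyte at both ages. The difference was -6.85 at 6 weeks, a 248-fold lower mean, and -5.37 at 12 months, 33.4-fold lower. In MSC-IVM-MII oocytes the levels were 2.32, 1.02 and 1.38 CPM at 6 weeks and 0, 0 and 1.63 CPM at 12 months. The metaphase II values rest on few counts, with 9 over the 3 IVM-MII oocytes at 6 weeks (exact Poisson 95% interval 4.1 to 17.1), against 2367 in the GV oocytes.

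Snrpb (ENSMUSG00000027404, chr2:130171414-130179403) was measured at 53.9, 39.6 and 77.2 CPM in GV and 1.86, 4.17 and 0 CPM in IVM-MII oocytes at 6 weeks. At 12 months the GV oocytes had 114, 62.1 and 68.9 CPM and the IVM-MII oocytes 1.63, 0 and 4.58 CPM. The groups did not overlap at either age, and the IVM-MII values rest on few counts. The differences were -4.51, a 28.3-fold lower mean, and -5.02, 39.4-fold lower. With MSC they were -4.49 and -3.87. Reads of Snrpb and of its paralog Snrpn could be shared out between them by the counting. Snrpn itself, 27.3% of whose exon bases are shared with another annotated gene on the same strand, differed by -0.28 at 6 weeks and 0.23 at 12 months.

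Snrpf (ENSMUSG00000020018, chr10:93583029-93589706) was in the opposite direction. It had 101.4, 52.4 and 105.2 CPM in GV and 195, 372 and 379 CPM in IVM-MII oocytes at 6 weeks, and 146, 68.6 and 71.8 against 431, 554 and 478 CPM at 12 months. No IVM-MII oocyte was as low as a GV oocyte of its age, with differences of 1.86 (3.65-fold) and 2.42 (5.10-fold). Its value carries a limit, since 65.9% of its exon bases overlap Ccdc38 on the other strand and SMART-seq2 does not keep strand.

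Snrpg (ENSMUSG00000057278, chr6:86371304-86379328) had 140.3, 66.9 and 177 CPM in GV and 233, 721 and 527 CPM in IVM-MII oocytes at 6 weeks, and 265, 129 and 89.2 against 479, 745 and 665 CPM at 12 months. Again the oocytes did not overlap, and the differences were 1.90 (3.86-fold) and 2.09 (3.91-fold). Snrpd1, Snrpd3 and Snrpe differed by 1.15, 1.31 and 0.97 at 6 weeks and by 0.96, 1.20 and 1.34 at 12 months. For Snrpd3 the oocytes overlapped at both ages, with 532, 207 and 697 CPM in GV and 607, 1257 and 1545 CPM in IVM-MII oocytes at 6 weeks. Without oocyte 3 of the GV group at 12 months, the Snrpd1, Snrpd3 and Snrpe differences at that age were 0.69, 0.62 and 1.06.

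**Figure D2:**
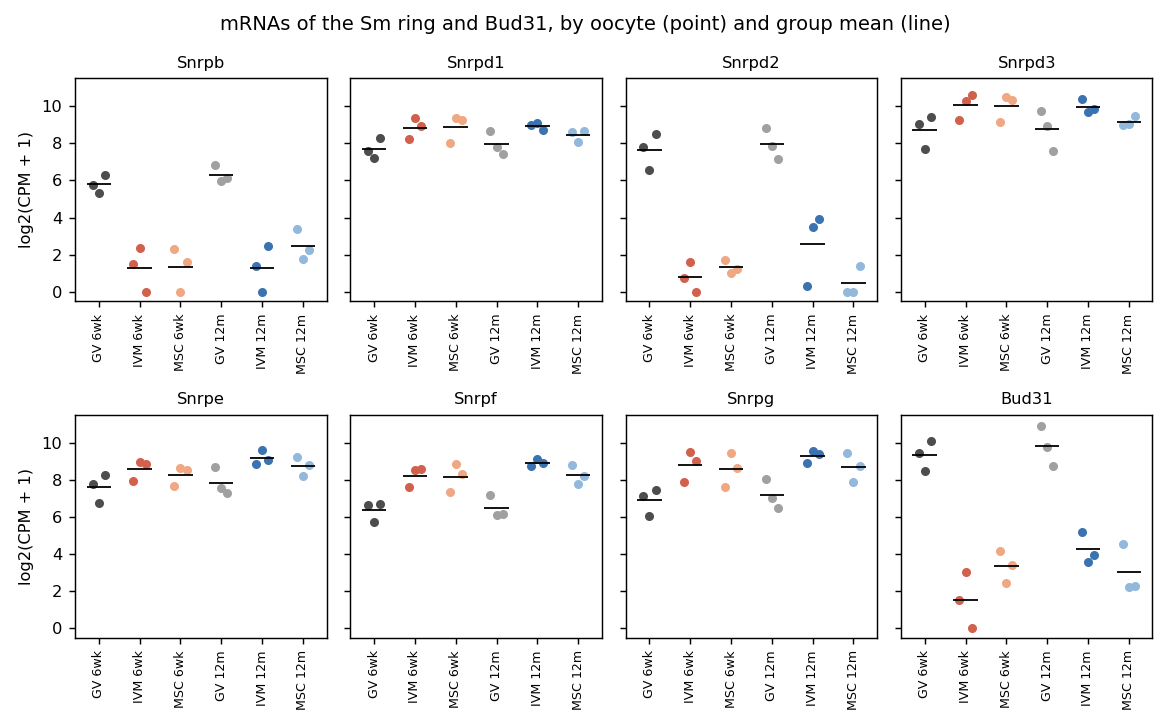
Each panel plots log2(CPM + 1) of 1 mRNA in the 6 groups, with 1 point per oocyte and a line at the group mean. Snrpb, Snrpd2 and Bud31 are low in the 4 metaphase II groups at both ages, while Snrpd1, Snrpd3, Snrpe, Snrpf and Snrpg are as high as in GV oocytes or higher.

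Levels of different genes were compared per transcript length, in TPM as deposited. In the GV oocytes Snrpb and Snrpd2 together made up 12.0%, 11.7% and 13.2% of the summed TPM of the 7 ring mRNAs at 6 weeks and 12.4%, 12.6% and 12.2% at 12 months. The share was thus nearly the same in all 6 GV oocytes. In IVM-MII oocytes it was 0.103%, 0.109% and 0% at 6 weeks and 0.0393%, 0.126% and 0.297% at 12 months. With MSC it was 0.280%, 0.0157% and 0.0754% at 6 weeks and 0.183%, 0.0860% and 0.122% at 12 months, and no metaphase II oocyte reached the lowest GV oocyte. Meanwhile the summed ring TPM was higher at metaphase II, at 3033 to 5555 TPM per oocyte against 1512 to 2503 TPM in GV oocytes. Snrpe was the highest of the 7 in TPM in each group mean, with 816 TPM in GV and 1469 TPM in IVM-MII oocytes at 6 weeks.

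**Figure D3:**
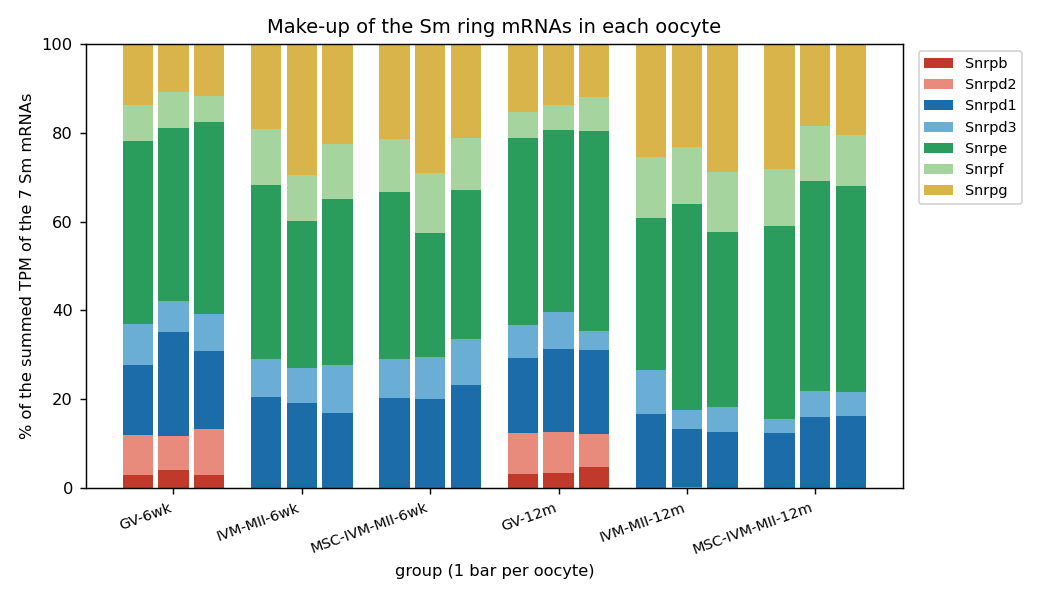
Each bar is 1 oocyte and its segments give the percent of the summed TPM of the 7 Sm ring mRNAs that each gene takes. The red segments of Snrpb and Snrpd2 take 11.7% to 13.2% in GV oocytes and at most 0.297% in metaphase II oocytes.

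Bud31 (ENSMUSG00000038722, chr5:145140362-145148078), which codes for a small protein of the activated spliceosome, had the largest difference of all members at 6 weeks and at 12 months. The GV oocytes had 702, 353 and 1109.6 CPM at 6 weeks and 1930.2, 894 and 436 CPM at 12 months. The IVM-MII oocytes had 1.86, 7.29 and 0 CPM, and 35.1, 11.2 and 14.8 CPM. Each GV oocyte was far above each IVM-MII oocyte of its age, and the IVM-MII values at 6 weeks rest on few counts. The differences were -7.82 at 6 weeks (237-fold lower) and -5.58 at 12 months (53.3-fold lower), and with MSC they were -6.00 and -6.79. In the GV oocytes Bud31 was at 1092 TPM at 6 weeks, above Snrpe, the highest of the ring. Ptcd1 on the other strand overlaps 15.2% of its exon bases.

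Of the other U1 and U2 snRNP genes among the members, the mRNAs of the U1 genes Snrpc and Snrpa were lower at metaphase II. Snrpc (ENSMUSG00000024217, chr17:27838150-27851968), the U1-C protein that stabilises pairing with the 5′ splice site, had 49.1, 25.1 and 72.9 CPM in GV and 1.39, 0.347 and 0 CPM in IVM-MII oocytes at 6 weeks. At 12 months the levels were 97.0, 42.5 and 26.04 against 2.09, 1.63 and 1.74 CPM. The groups were far apart at both ages, with differences of -4.96 (84.4-fold lower) and -4.11 (30.3-fold lower). The IVM-MII values of Snrpc rest on few counts, so these folds are imprecise. Snrpa (ENSMUSG00000061479, chr7:27187005-27196271), the U1-A protein, had 91.98, 77.1 and 97.7 CPM in GV and 11.6, 23.6 and 29.7 CPM in IVM-MII oocytes at 6 weeks. Its differences were -2.08 and -1.52 without MSC and -1.73 and -4.42 with MSC, again with no overlap in any of the 4. BC024978 on the other strand overlaps 11.0% of its exon bases.

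The mRNAs of the U2 genes Snrpb2 and Snrpa1 went apart. Snrpb2 (ENSMUSG00000008333, chr2:143063039-143072853), the U2-B″ protein, is a close relative of U1-A in sequence, and its mRNA was higher. It had 113, 109.6 and 154 CPM in GV and 397, 708 and 619 CPM in IVM-MII oocytes at 6 weeks, and 278, 155 and 82.9 against 655, 1001 and 501.7 CPM at 12 months. The oocytes did not overlap in any of the 4 comparisons, with differences of 2.16 (4.58-fold), 2.17 (4.18-fold), 1.94 and 1.74. Snrpa1, the U2-A′ protein that pairs with U2-B″, differed by 0.07 at 6 weeks and by -1.43 at 12 months, where its 3 GV oocytes (334, 217 and 137 CPM) were all above the IVM-MII oocytes (49.1, 113 and 88.3 CPM). Over these 4 genes, 2 were lower and 1 higher at 6 weeks, and 3 were lower and 1 higher at 12 months. Among all genes 36.9% were lower and 19.5% higher at 6 weeks, and 37.6% and 17.2% at 12 months.

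Of 8 SF3a and SF3b genes 3 were lower and 2 higher at 6 weeks (median -0.52), beside 36.9% of all genes lower and 19.5% higher. At 12 months 5 were lower and 0 higher (median -1.29), beside 37.6% and 17.2% of all genes. The number lower at 12 months was 6 under DESeq2 size factors and 3 with a pseudocount of 5. It was 4 under TPM, within title prefixes and without oocyte 3 of the GV group. At 6 weeks 4 were lower and 1 higher without the metaphase II oocytes of title prefix Y01 (median -1.07). With MSC 4 were lower and 3 higher at 6 weeks, and 4 lower and 1 higher at 12 months. The shares of all genes with MSC were 33.7% and 22.8% at 6 weeks, and 40.4% and 18.1% at 12 months. Sf3b5, a small SF3b subunit, was lower throughout. Its GV oocytes had 146, 96.1 and 166 CPM at 6 weeks and 243, 207 and 145 CPM at 12 months, and its IVM-MII oocytes 69.0, 12.2 and 16.3 CPM and 29.4, 14.8 and 16.6 CPM. The groups did not overlap, with differences of -2.41 and -3.26, and with MSC of -3.18 and -3.82. Sf3b3, a large scaffold subunit, and Sf3b4 differed by -3.29 and -1.37 at 6 weeks and by -2.30 and -1.13 at 12 months.

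Sf3b1 (ENSMUSG00000025982, chr1:54985169-55027481), the subunit that clamps the branch site helix, was uneven among the oocytes of a group. At 6 weeks the GV oocytes had 36.8, 229 and 22.6 CPM and the IVM-MII oocytes 1093, 63.5 and 169.6 CPM, so the groups overlapped, and the difference of 1.96 became 0.83 without IVM-MII oocyte 1. Leaving out GV oocyte 2 gave 2.94 in its place. At 12 months the GV oocytes had 76.2, 109 and 167 CPM and the IVM-MII oocytes 240.1, 129 and 119 CPM, a difference of 0.46. The highest values were in single oocytes of the metaphase II groups, at 1093 CPM, at 730.4 CPM in MSC-IVM-MII oocyte 1 at 6 weeks and at 959.8 CPM in MSC-IVM-MII oocyte 2 at 12 months. Both of those at 6 weeks carry the title prefix Y01 and had mitochondrial shares of 3.22% and 3.03%, the lowest among metaphase II oocytes. The one at 12 months carries prefix O05 and had a share of 11.4%. In the same order, the median log2 CPM of long minus short transcripts was 1.29, 0.73 and 1.20, the highest of the 18 libraries. Sf3b1 is itself long, at a mean of 3576 bases. Whether transcript length takes part in its values was not tested.

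The LSm genes had a median below 0 in all 4 maturation comparisons. LSm2 to LSm8 form the ring of the U6 snRNP, and LSm1 takes the place of LSm8 in a cytoplasmic ring that works in mRNA decay. Of 8 genes, 5 were lower and 0 higher at 6 weeks (median -1.61), and the counts were the same at 12 months (median -1.79). With MSC 5 and 6 were lower and 0 higher, with medians of -2.10 and -2.38. All genes had 36.9% lower and 19.5% higher at 6 weeks without MSC, and 37.6% and 17.2% at 12 months. With MSC these shares were 33.7% and 22.8% at 6 weeks, and 40.4% and 18.1% at 12 months. Averaged within title prefixes, 4 were lower and 2 higher at 12 months without MSC (median -1.41) and 4 lower and 1 higher with it (median -1.51), while at 6 weeks 7 were lower and 0 higher both without MSC and with it. Lsm1, of the decay ring, was near its GV level throughout, with differences of 0.39 and 0.56 without MSC and 0.03 and 0.42 with it. The medians over all genes were -0.38 and -0.46 without MSC and -0.22 and -0.54 with it.

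Lsm3 (ENSMUSG00000034192, chr6:91515928-91522625), whose 3′ end is printed above, had 332, 162 and 392.5 CPM in GV and 15.8, 39.9 and 69.2 CPM in IVM-MII oocytes at 6 weeks, and 609, 368 and 235 against 59.6, 10.6 and 10.5 CPM at 12 months. The oocytes did not overlap, with differences of -2.93 (7.10-fold lower) and -4.23 (15.03-fold lower). Lsm4 (ENSMUSG00000031848, chr8:70673248-70678752) had 100.7, 40.8 and 57.8 CPM in GV and 0, 6.60 and 0 CPM in IVM-MII oocytes at 6 weeks, and 109, 111 and 74.8 against 10.4, 0 and 8.28 CPM at 12 months. Again no oocytes overlapped, and the differences were -5.00 (30.2-fold lower) and -4.37 (15.8-fold lower). For Lsm4 the IVM-MII values at 6 weeks rest on few counts. Lsm5 differed by -1.83 and -3.31 and Lsm6 by -3.78 and -2.54, each with the groups apart at both ages.

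Lsm6 carries a limit from the deposited transcript lengths, which the authors' quantification gives per library. They ranged from 736 to 810 bases in GV oocytes and from 837 to 2452 bases in metaphase II oocytes, so the mix of transcripts assigned to Lsm6 differed between the stages. Lsm7 was the least steady of the LSm genes. It differed by -1.39 at 6 weeks, with 62.1, 44.5 and 74.7 CPM in GV and 37.2, 12.2 and 22.8 CPM in IVM-MII oocytes. At 12 months it differed by 0.58, with 100.4, 45.3 and 14.04 against 104.96, 21.1 and 99.6 CPM and overlapping groups. Lsm2 and Lsm8 differed by -0.72 and -0.74 at 6 weeks and by -1.03 and -0.94 at 12 months.

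PRPF genes were spread over both directions, with 4 lower and 6 higher of 13 at 6 weeks (median 0.73), and 4 lower and 4 higher at 12 months (median 0.25, but -0.22 with TPM in place of CPM and 0.01 without oocyte 3 of the GV group). The number lower at 6 weeks was 2 under TPM, with a pseudocount of 5 and within title prefixes, and 5 with a pseudocount of 0.1. At 12 months it was 2 under TPM and without oocyte 3 of the GV group, 1 with a pseudocount of 5 and 5 within title prefixes. Over these and the other settings the number higher ranged from 5 to 7 at 6 weeks and from 3 to 5 at 12 months. With MSC 1 was lower and 6 higher at 6 weeks and 4 were lower and 6 higher at 12 months. Of all genes, 36.9% were lower and 19.5% higher at 6 weeks without MSC, and 37.6% and 17.2% at 12 months. With MSC these shares were 33.7% and 22.8% at 6 weeks, and 40.4% and 18.1% at 12 months. Prpf38b (ENSMUSG00000027881, chr3:108902805-108911727), a relative of the tri-snRNP factor Prpf38a, had the largest higher value at 6 weeks. It had 18.9, 26.5 and 16.5 CPM in GV and 152, 145 and 104 CPM in IVM-MII oocytes at 6 weeks, and 14.8, 36.4 and 32.5 against 81.2, 147 and 71.7 CPM at 12 months. The oocytes were apart in all 4 comparisons, with differences of 2.65 (6.48-fold), 1.83 (3.58-fold), 2.77 and 2.06. Prpf38a differed by -1.10 at 6 weeks and -0.12 at 12 months.

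Prpf6 (ENSMUSG00000002455, chr2:181591868-181655660), which bridges U5 and U4/U6 in the tri-snRNP, had 23.2, 46.0 and 11.1 CPM in GV and 232, 51.4 and 56.0 CPM in IVM-MII oocytes at 6 weeks, and 17.8, 31.8 and 31.3 against 118, 104.5 and 85.4 CPM at 12 months. The groups did not overlap, though at 6 weeks the highest GV oocyte came close to the lowest IVM-MII oocyte, and the differences were 1.89 and 1.92.

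Prpf31, another tri-snRNP protein, which binds the U4 small nuclear RNA, was lower in all 4 comparisons. At 6 weeks it had 58.3, 47.2 and 49.2 CPM in GV and 1.39, 0 and 33.2 CPM in IVM-MII oocytes, and at 12 months 55.1, 33.9 and 36.7 against 0.116, 0.203 and 13.5 CPM. The groups did not overlap, with differences of -3.59 and -3.96, yet 1 IVM-MII oocyte at each age stood well above the other 2. Gm15927 on the other strand overlaps 18.1% of its exon bases. Prpf8, the large protein at the centre of the spliceosome, was low and uneven, with 6.64, 24.9 and 3.23 CPM in GV and 30.0, 0 and 0 CPM in IVM-MII oocytes at 6 weeks. Prpf19, the ubiquitin ligase of the activated spliceosome, was at most 4.77 CPM in any GV oocyte and differed by 1.28 and 0.25 without MSC and by 1.99 and 1.81 with it.

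Of 10 SR protein genes 1 was lower and 5 were higher at metaphase II at 6 weeks (median 1.25), beside 36.9% of all genes lower and 19.5% higher. At 12 months 2 were lower and 4 higher (median 0.94), beside 37.6% and 17.2%. With MSC the counts were 1 lower and 6 higher at 6 weeks (median 1.29) and 1 lower and 4 higher at 12 months (median 0.81). The shares of all genes with MSC were 33.7% and 22.8% at 6 weeks, and 40.4% and 18.1% at 12 months. The counts at 12 months moved with single libraries and settings. Without oocyte 3 of the GV group, the one with granulosa transcripts, 0 were lower and 6 higher (median 1.17). Under DESeq2 size factors the counts were 3 lower and 2 higher, and averaged within title prefixes they were 4 lower and 2 higher (median 0.32). At this age the prefix setting leaves out GV oocyte 1 and gives that same oocyte 3 more weight, so its counts also depend on oocyte 3.

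Srsf5 (ENSMUSG00000021134, chr12:80945504-80950507) was past 2-fold higher in each comparison. It had 40.9, 53.3 and 34.1 CPM in GV and 186, 211 and 140.2 CPM in IVM-MII oocytes at 6 weeks, and 32.0, 37.2 and 56.5 against 119, 219 and 161 CPM at 12 months. The oocytes never overlapped. The differences were 2.04 (4.19-fold), 1.96 (3.97-fold), 1.79 and, with MSC at 12 months, 2.51 (5.71-fold), where the oocytes stood at 268, 259 and 190.3 CPM. Srsf3 and Srsf10 differed by 1.77 and 1.90 at 6 weeks and by 0.97 and 0.91 at 12 months. Srsf7 differed by 1.54 and 1.06, with the groups apart at both ages. Srsf11 differed by 0.40 and 1.11. Srsf4, of whose exon bases 43.0% overlap Gm12992 on the other strand, differed by 0.96 and 1.695.

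Srsf2 (ENSMUSG00000034120, chr11:116849901-116853094), a nuclear SR protein that activates exons, was higher at 6 weeks and not past 2-fold at 12 months. At 6 weeks it had 9.20, 18.03 and 6.82 CPM in GV and 86.0, 27.4 and 45.7 CPM in IVM-MII oocytes, with no overlap and a difference of 2.08. At 12 months it had 12.5, 20.1 and 78.6 CPM in GV and 6.87, 41.9 and 11.8 CPM in IVM-MII oocytes, with overlap and a difference of -0.80. The value of 78.6 CPM belongs to the GV oocyte with granulosa transcripts, and without that oocyte the difference was -0.053. Exons of Mettl23 and Mfsd11 on the other strand overlap 15.6% and 9.74% of its exon bases. Srsf9, at most 13.6 CPM in any oocyte, was the SR gene furthest lower, with differences of -2.10 and -1.21. Srsf1 and Srsf6 differed by -0.70 and -0.66 at 6 weeks and by -0.55 and -1.14 at 12 months. Without the GV oocyte with granulosa transcripts, the differences of Srsf1, Srsf6 and Srsf9 at 12 months were 0.55, -0.71 and -0.72.

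**Figure D4:**
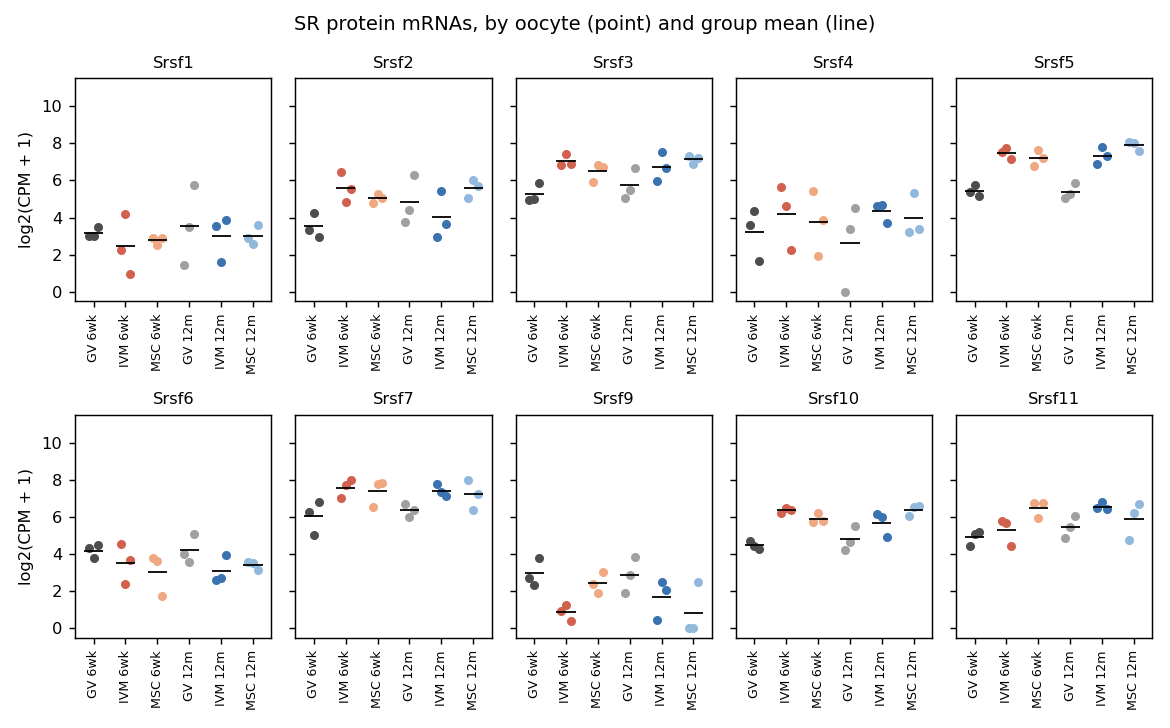
Each panel plots log2(CPM + 1) of 1 SR protein mRNA in the 6 groups, with 1 point per oocyte and a line at the group mean. The metaphase II points of Srsf5 lie above the GV points at both ages, and in the GV group at 12 months 1 oocyte stands above the other 2 for Srsf2 and Srsf1.

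The maturation comparisons without MSC share no oocytes between the ages, and members that were far lower at 6 weeks were also far lower at 12 months. Of 52 members 47 had the same sign (90.4%), with 16 past 2-fold lower at both ages, 9 past 2-fold higher at both and 0 past 2-fold in opposite directions. Over all measured genes the same sign was present in 78.6%, with 3384 lower at both, 1343 higher at both and 157 in opposite directions. Across the members Pearson's r was 0.914 and Spearman's rho 0.860, against 0.797 and 0.766 across all genes. These are descriptions across genes, which are not independent replicates and share their libraries and depth.

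**Figure D5:**
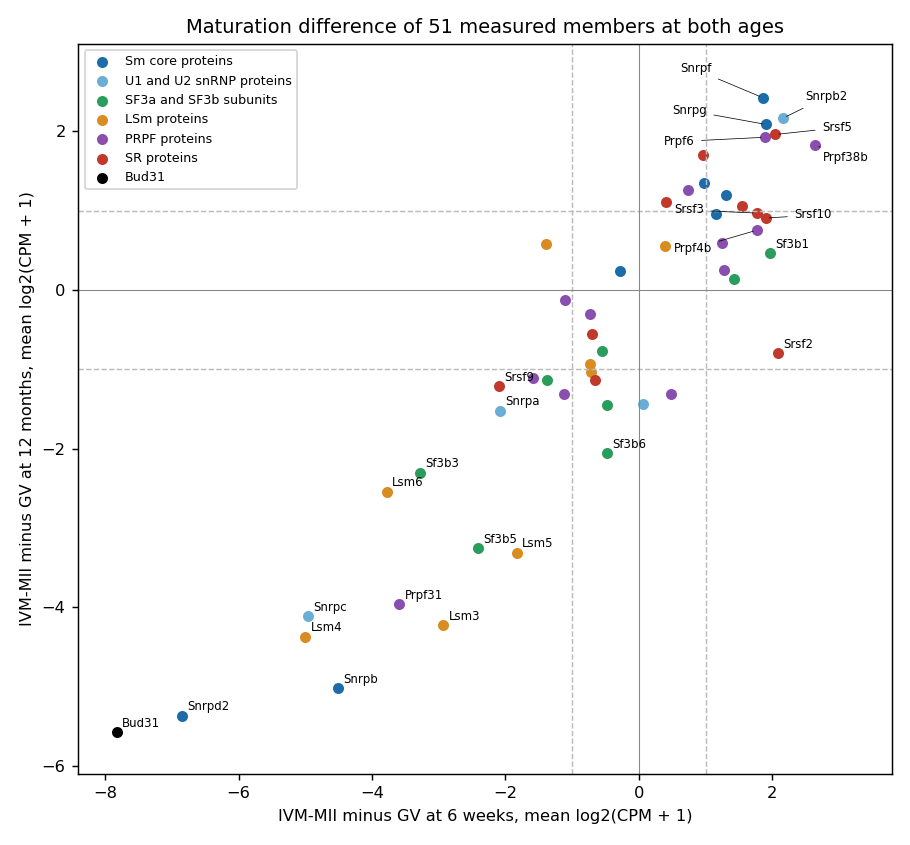
Each point is 1 of 51 measured members, with the IVM-MII minus GV difference in mean log2(CPM + 1) at 6 weeks on the x axis and at 12 months on the y axis, coloured by role, and dashed lines at 2-fold. Bud31 and Snrpd2 lie furthest to the lower left, and Srsf2 lies at 2.08 and -0.80.

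Few members were past 2-fold apart between maturation with and without MSC. At 6 weeks 2 of 52 members were past 2-fold lower and 6 higher in MSC-IVM-MII than in IVM-MII oocytes, beside 6.2% of all genes lower and 14.9% higher, and the median was 0.03 over the members and 0.12 over all genes. At 12 months 7 were lower and 4 higher, beside 14.4% and 10.7%, with medians of -0.09 and -0.07. The members' counts were near those of all genes. Without the metaphase II oocytes of prefix Y01 the count higher at 6 weeks was 10.

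At 6 weeks Srsf9 was higher with MSC, at 4.22, 2.73 and 7.23 CPM against 0.929, 1.39 and 0.313 CPM, a difference of 1.58 with no overlap. Sf3a1, an SF3a subunit that touches U1 and U2, had 31.8, 19.5 and 29.6 CPM with MSC against 27.4, 2.08 and 3.76 CPM, a difference of 1.87 with overlap, and the difference ranged from 1.24 to 2.84 on leaving out 1 IVM-MII oocyte. Srsf11 differed by 1.17, with 109, 60.7 and 106 against 54.1, 51.0 and 20.97 CPM, but by 0.74 without IVM-MII oocyte 3. Lsm5 was lower, with 7.80, 22.2 and 21.3 against 72.9, 38.2 and 27.2 CPM, a difference of -1.39 that became -0.93 without MSC-IVM-MII oocyte 1 and -0.55 without the oocytes of prefix Y01. Prpf3, which holds the U4/U6 pair in the tri-snRNP, differed by -1.02, and by -0.71 without MSC-IVM-MII oocyte 1 and -0.67 without those of prefix Y01. Bud31 differed by 1.83, with 17.3, 4.44 and 9.63 against 1.86, 7.29 and 0 CPM, all far below the GV oocytes.

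At 12 months Snrpa was lower with MSC, at 0, 2.93 and 22.2 CPM against 41.0, 28.5 and 29.6 CPM. The oocytes did not overlap and the difference was -2.90, or -1.81 without MSC-IVM-MII oocyte 1. Snrpd2 differed by -2.11, from 0, 0 and 1.63 CPM against 0.233, 10.4 and 14.2 CPM, with overlap. Lsm7 differed by -2.50, with 54.9, 0 and 22.2 against 104.96, 21.1 and 99.6 CPM, and by -0.78 without oocyte 2 of the MSC group, where it was at 0. Bud31 differed by -1.22, and by -0.83 without MSC-IVM-MII oocyte 2, -0.84 without oocyte 3 and -0.76 without IVM-MII oocyte 1. Among the higher members, Prpf19 had 12.6, 20.5 and 5.71 against 1.63, 4.07 and 4.80 CPM, a difference of 1.55 with no overlap. Prpf31 differed by 2.51, with 19.1, 27.5 and 5.30 against 0.116, 0.203 and 13.5 CPM, and Srsf2 by 1.56, both with overlap, and Srsf2 by 1.04 without IVM-MII oocyte 1. The mesenchymal stromal markers in these 2 groups are given above and did not exceed 27.7 CPM.

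Few members were past 2-fold apart between the GV oocytes of the 2 ages. At 12 months 0 of 52 were past 2-fold lower and 2 were higher than at 6 weeks, beside 4.05% of all genes lower and 9.62% higher, with a median of 0.28 over the members and 0.13 over all genes. Prpf4, which sits with Prpf3 on U4/U6, had 2.54, 5.52 and 4.83 CPM at 12 months against 1.02, 1.66 and 1.08 CPM, a difference of 1.20 with no overlap and few counts. Srsf2 differed by 1.30, with overlap, but by 0.55 without the GV oocyte with granulosa transcripts. Snrpd2 differed by 0.30, Snrpb by 0.51 and Bud31 by 0.48, with overlapping oocytes, and by 0.70, 0.61 and 1.014 without that oocyte. The median of the 8 Sm core genes was 0.26, and 0.58 without it.

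In IVM-MII oocytes 4 members were lower and 7 higher at 12 months, beside 10.5% and 16.5% of all genes, with medians of 0.08 and 0.08. Bud31 was higher, at 35.1, 11.2 and 14.8 against 1.86, 7.29 and 0 CPM, a difference of 2.73 with no overlap. Snrpd2 and Lsm7 differed by 1.78 and 1.43, both with overlap, and Lsm7 by 2.17 without IVM-MII oocyte 2 of the older group. Lsm6 differed by 1.35, and by 0.80 without IVM-MII oocyte 1 at 6 weeks. The lower members were Srsf2 at -1.58, Lsm5 at -1.57, Snrpa1 at -1.32 and Prpf3 at -1.14. For Lsm5 the older oocytes had 15.2, 12.8 and 12.9 CPM against 72.9, 38.2 and 27.2 CPM. Snrpa1 had 49.1, 113 and 88.3 against 166, 173 and 274 CPM, and its difference was -0.98 without the older oocyte 1. Apart from Srsf2 the oocytes of these lower members did not overlap.

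In MSC-IVM-MII oocytes 6 members were lower and 1 higher at 12 months, beside 14.8% and 8.07% of all genes, with medians of -0.07 and -0.09. Snrpa had 0, 2.93 and 22.2 CPM against 28.3, 15.7 and 39.6 CPM, a difference of -2.59, or -1.50 without the older oocyte 1. Sf3a1 differed by -1.42, and by -0.37 without that oocyte. Prpf3 differed by -1.05, by -0.26 without the older oocyte 3 and by -0.77 without the younger oocyte 2. The oocytes overlapped for each of these, and Snrpb, the member that was higher, differed by 1.13 at levels far below those of GV oocytes. In all 3 age comparisons the prefixes of the titles differ between the ages as well.

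Genes of related machinery, from lists chosen with earlier results known, are given for the maturation comparisons without MSC, in which 36.9% of all genes were lower and 19.5% higher at 6 weeks and 37.6% and 17.2% at 12 months. Of 53 other spliceosome proteins 11 were lower and 15 higher at 6 weeks (median 0.31) and 14 lower and 18 higher at 12 months (median 0.02). Ddx39b, a helicase of early spliceosome assembly and mRNA export, was listed at 0 CPM in all 3 IVM-MII oocytes at 6 weeks against a mean of 97.2 CPM in GV oocytes, and at 0.136 against 92.1 CPM at 12 months. Rbm22, of the active centre, was higher at 6 weeks, at 74.7 against 11.3 CPM. Of 12 SR protein kinases and SR-related proteins 0 were lower and 6 higher at 6 weeks (median 1.28), and 1 lower and 7 higher at 12 months (median 1.29). Srpk2, which phosphorylates SR proteins, had a mean of 400.2 CPM in IVM-MII and 63.3 CPM in GV oocytes at 12 months. Srrm1, an SR-related coactivator, had 179 against 21.1 CPM at 6 weeks.

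Of 13 genes of snRNP assembly 6 were lower and 1 higher at 6 weeks (median -0.37) and 5 lower and 1 higher at 12 months (median -0.64). The shares of all genes, for these and the lists that follow, were 36.9% lower and 19.5% higher at 6 weeks and 37.6% and 17.2% at 12 months. Snupn, the import adaptor for snRNPs, had a mean of 21.3 CPM in IVM-MII and 305.6 CPM in GV oocytes at 6 weeks, and 38.6 against 305.5 CPM at 12 months. Smn1, whose protein loads Sm rings onto small nuclear RNA, was higher, at 70.5 against 22.4 CPM and 46.1 against 20.2 CPM. Of 24 hnRNP and PTB genes 0 were lower and 5 higher at 6 weeks (median 0.37), and 4 were lower and 4 higher at 12 months (median 0.03). Of 7 exon junction complex genes 2 were lower and 4 higher at 6 weeks (median 1.32), and 2 were lower and 3 higher at 12 months (median 0.09). Within that complex the core protein Rbm8a was lower, at 14.05 against 90.02 CPM and 17.8 against 99.2 CPM, while Magohb, of the partner protein, was higher at 6 weeks, at 186 against 15.6 CPM.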

How the data were processed

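Each of 18 single-oocyte libraries had 1 deposited table of 47069 Ensembl genes with expected counts, TPM, FPKM and transcript lengths, per the file headers. Reads were handled with TopHat2 2.1.1, Cufflinks, Trim Galore 0.4.5 and FastQC 0.11.8 on mm10 (GRCm38.p5), per the submitters' processing notes, which give no order. Which tool and annotation gave the expected counts is not given in the sources used here. As deposited by the authors, expected counts share reads among similar genes, so values of paralogs are less certain, and no strand is stated, so overlapping genes on opposite strands cannot be told apart. Exon overlaps (17 of 55 members, 8 of them over more than 10% of their exon bases with 1 gene) came from GENCODE M21, which matched 46488 of the 47069 identifiers. TPM, as deposited by the authors, served for levels between genes and as an alternative. The deposited transcript length was read as given, and the authors' FPKM was not used.

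Rounded counts were scaled with edgeR 4.0.16 (TMM, in R 4.3.3), and filterByExpr by group kept 12209 genes. A value is the difference of group means of log2(CPM + 1), with a pseudocount of 1, which understates differences of low genes, and a fold is a ratio of mean CPM. Each group of 3 oocytes counted as 1 sample in 9 comparisons, with no test. Exact Poisson 95% intervals cover counting error only, since reads carry no molecular identifiers. The steps were tested on simulated data. Python 3.11.15 was used with pandas 2.3.3, NumPy 2.4.6, Matplotlib 3.10.9 and SciPy 1.17.1.

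The members, lists and comparisons were chosen with earlier results of these data known. Named members are the 6 largest past 2-fold each way in each maturation comparison and the 3 largest in the others, with at least 20 CPM in the higher group, Bud31, and the member highest in TPM per role. For each other list the largest each way is eligible. Further members are named to complete a role, to give those past 2-fold in all 4 maturation comparisons, or after their values were seen (Srsf9, Prpf19, Prpf8 and Prpf4 among them). One measured member is counted in the totals but not reported by itself here. Alternatives were DESeq2 1.42.0 size factors, totals without mitochondrial counts, TPM, pseudocounts of 0.1 and 5, a floor of 20 CPM, no filter, means within title prefixes, and leaving out each oocyte.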

Additional observations from a re-analysis of the deposited data

Results flagged for a closer look

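For some members every oocyte of a group lay to one side of the mean of the group it was compared with, and every oocyte of another group lay to the opposite side under the same comparison. The difference between the groups was not tested in any of these. Under maturation with against without MSC, Snrpd2 differed by 0.54 at 6 weeks and by -2.11 at 12 months, at levels far below those of GV oocytes at both ages. Srsf2 differed by -0.57 at 6 weeks and by 1.56 at 12 months. Under age, Prpf4 differed by 1.20 in GV oocytes and by -0.60 in IVM-MII oocytes, with few counts in each group. Srsf2 differed with age by 1.30 in GV oocytes, by -1.58 in IVM-MII oocytes and by 0.55 in MSC-IVM-MII oocytes. Without the GV oocyte that held granulosa transcripts the first of these was 0.55. Snrpa differed with age by 0.66 in IVM-MII oocytes and by -2.59 in MSC-IVM-MII oocytes, and the second was -1.50 without MSC-IVM-MII oocyte 1 at 12 months, where Snrpa was at 0.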

How the results depend on the processing

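With 3 oocytes a group and no animals named, the spread between animals is unknown, and low members rest on few counts. The labels give no replicate numbers to pair oocytes by, so differences were also averaged within title prefixes, whose meaning is not given. For maturation at 12 months this leaves out GV oocyte 1, whose prefix has no metaphase II oocyte. It gives more weight to GV oocyte 3, the one with granulosa transcripts. Within prefixes 18 members were lower and 18 higher for maturation at 6 weeks, and 23 lower and 13 higher at 12 months. Of 970 alternative values of named members, 941 lay within 1 standard deviation between oocytes, pooled over the 2 groups, of the main value. The remaining 29 moved further. Leaving out 1 of 3 oocytes cannot move a value that far, so those settings were bound to count as unmoved. None of the called values changed sign, but some fell below 2-fold, such as Sf3b1 at 6 weeks, from 1.96 to 0.83 without IVM-MII oocyte 1. The scaling moved the median of all genes, at 6 weeks from -0.38 under TMM to -0.57 under DESeq2 size factors and -0.30 under TPM, and at 12 months from -0.46 to -0.69 and -0.36.

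The members' median difference for maturation at 6 weeks (-0.38) was -0.62 under DESeq2 size factors, -0.16 under TPM, 0.40 over members of at least 20 CPM, -0.19 within title prefixes and -0.028 without the oocytes of prefix Y01. At 12 months it was 0.35 over members of at least 20 CPM. With MSC at 6 weeks it was -0.40 with a pseudocount of 0.1, 0.14 from 20 CPM, 0.10 within prefixes, 0.026 under TPM, 0.026 with no filter and 0.11 without GV oocyte 2. With MSC at 12 months it was -0.61 under DESeq2 size factors, 0.19 from 20 CPM and -0.63 within prefixes. For age in MSC-IVM-MII oocytes it was 0.091 on totals without mitochondrial genes and -0.24 under TPM.

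Counts that moved by over 1.5 times were these. For maturation at 12 months 14 members were lower with a pseudocount of 5 and 13 from 20 CPM. For MSC at 6 weeks 1 was lower under TPM and 1 with a pseudocount of 5, and 3 were higher with a pseudocount of 5, 11 with 0.1, 3 from 20 CPM and 10 without prefix Y01. For MSC at 12 months 3 were lower with a pseudocount of 5. For age in GV oocytes 0 were higher under TPM, 1 with a pseudocount of 5, 4 with 0.1 and 1 from 20 CPM, and 1 was lower with a pseudocount of 0.1 and 1 without GV oocyte 3 of 12 months. For age in IVM-MII oocytes 7 were lower under TPM and 9 without prefix Y01, and 4 were higher with a pseudocount of 5 and 11 with 0.1. For age in MSC-IVM-MII oocytes 1 was lower with a pseudocount of 5, 10 with 0.1 and 3 from 20 CPM, and 0 were higher with a pseudocount of 5, 2 with 0.1 and 5 without prefix Y01. The cause was not tested.

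Leaving out 1 oocyte at a time, the median for maturation ranged from -0.22 to -0.028 at 6 weeks, -0.68 to -0.10 at 12 months, -0.27 to 0.11 with MSC at 6 weeks and -0.66 to -0.18 with MSC at 12 months. It ranged from 0.049 to 0.26 and -0.27 to -0.11 for MSC at 6 weeks and 12 months, and from 0.11 to 0.36, -0.01 to 0.10 and -0.20 to 0.05 for age in GV, IVM-MII and MSC-IVM-MII oocytes. In that order the lower members numbered 18 to 20, 17 to 23, 15 to 18, 20 to 22, 2 to 4, 5 to 8, 0 to 1, 4 to 9 and 6 to 9, and the higher ones 17 to 20, 12 to 15, 17 to 20, 13 to 16, 6 to 11, 4 to 6, 2 to 7, 5 to 10 and 0 to 5. In an alternative added after seeing the data, CPM in place of TPM, the Snrpb and Snrpd2 share of the ring had group means of 19.9% and 22.0% in GV oocytes at 6 weeks and 12 months, and 0.325% and 0.246% in IVM-MII and MSC-IVM-MII oocytes at 12 months.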
